A study of Caenorhabditis elegans with 4 samples.

Results

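The 616 regions described here are the peaks of the transcription factor ELT-3 on chromosome IV of Caenorhabditis elegans. They were chosen by position alone, as every row of the combined peak list that lies on chromosome IV, and make up 15.7% of the 3936 peaks in that list. Chromatin immunoprecipitation with sequencing (ChIP-seq) was used to find where the factor binds. In this assay proteins are crosslinked to DNA, the DNA is sheared, fragments held by one protein are collected with an antibody, and their reads are counted against a control. The study has 2 ELT-3 ChIP libraries and 2 input libraries, where input is sheared DNA kept aside before the antibody step. All 4 libraries are from the strain OP75, which carries the allele ed3 of unc-119 on III. It also holds the transgene wgIs75, in which elt-3 is joined to TY1, EGFP and FLAG and which brings an intact copy, unc-119 (+). There is thus no group without the tagged factor. They come from whole embryos of a mixed male and hermaphrodite population, kept at 20 °C per the labels' protocols. The transgene was brought in by bombardment and the antibody, a goat serum, was raised against EGFP, so the peaks are those of the tagged copy. The titles set the groups, and the free-text descriptions contradict them in part, because the libraries titled ChIP are described as input, and those titled input are described as both and carry the antibody entry. Whether the ChIP replicates came from separate cultures is not stated.

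ELT-3 is a GATA-type factor: a zinc finger of this family recognises the short DNA word GATA with its flanking bases. In the worm embryo ELT-1, another GATA factor, sets the epidermal fate, and ELT-3 acts later in most epidermal cells, the layer that secretes the cuticle. Chromosome IV is an autosome best known for its piRNA genes, which make the small RNAs that silence foreign sequence in the germ line. In the RefSeq gene table (assembly WBcel235) it holds 14714 of 15363 annotated piRNA genes on the 6 chromosomes (95.8%) and 3281 protein-coding genes. The peak lists name no genes and their coordinates are on an older build, WormBase WS180, so peaks are given below by position, without genes or sequence.

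The lists give a start, an end and 1 probability for each peak. The probability matched a binomial tail for 100% of the IV peaks in each list, which returns a number of ChIP tags (reads) and of control tags scaled to the ChIP library. All tag numbers below were derived in that way, since the files state none, and the depth of each library is unknown. Over the 616 IV peaks of the combined list the ChIP tags numbered 46483 and the scaled control tags 16048. A peak had a median of 65 ChIP tags (range 20 to 608), a median of 23 control tags (1 to 162) and a median width of 265 bp (1 to 2532 bp). The median ratio of ChIP to control tags was 3.00, with quartiles of 2.53 and 3.82. Intervals given with a ratio are 95% exact binomial (Clopper-Pearson) and cover counting error only. Because whole embryos were used, binding in more cells and stronger binding per cell cannot be told apart.

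The lists are not shown to be independent, which limits how far their overlap can be read. Where both ends of a pair lay within 25 bp, at 79 pairs on IV, replicate 1 held 68.1% of the ChIP tags of replicate 2 (4159 and 6108) and 65.1% of the control tags (1224 and 1880). Per pair the control percentage had quartiles of 63.6% and 66.7%. The combined list repeated replicate 2: of its 616 IV intervals 446 (72.4%) were identical to a replicate 2 interval to the base, and all 446 carried the same tag numbers. Another 161 overlapped a replicate 2 peak with shifted ends, by a median of 9 bp at the end that moved more. Only 1 interval was identical to one of replicate 1. At these 446 intervals the combined list thus adds no measurement to replicate 2, and the comparison that follows is mainly with replicate 1.

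Peaks covered 183568 bp of IV, or 1.05% of the 17.4 Mb up to the last peak end. Their density was 35.4 per Mb, against 42.6 on II, 49.0 on III, 30.6 on V and 37.8 on X. Per 1000 protein-coding genes IV had 188 peaks, against 189 on II, 255 on III, 128 on V and 245 on X. By either count 3 of the other 4 chromosomes stood above IV and V stood below it, and IV and II were close when genes were the denominator. Replicate 1 alone gave 80.5 peaks per 1000 genes on IV, against 84.7 on II, 111 on III, 52.9 on V and 108 on X. No test was made of these densities, which have 1 value per chromosome.

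The peak of smallest probability on IV lay at IV 14032593 to 14034498. It ranked 6 in the whole combined list and held 608 ChIP tags and 162 control tags, with a ratio of 3.75 (3.15 to 4.49). In replicate 1 it held 360 ChIP tags and 100 control tags, with a ratio of 3.60 (2.88 to 4.54), and was again first on IV. Replicate 2 gave the combined numbers to the tag. The next 3 peaks to its right were also found in both replicates, at IV 14043731 to 14044259 (142 ChIP tags, ratio 3.55), IV 14050460 to 14050729 (84 tags, ratio 6.00) and IV 14070530 to 14071249 (169 tags, ratio 4.45). The last of these 3 ranked 9 on IV by probability and 3 in replicate 1, where its ratio was 4.56 (2.94 to 7.34).

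The second IV peak, at IV 13919179 to 13919599, was narrower, at 421 bp, and steeper. It held 211 ChIP tags against 43, a ratio of 4.91 (3.52 to 6.98), and 139 against 27 in replicate 1, a ratio of 5.15 (3.39 to 8.09). The one after it in rank, at IV 14610400 to 14612931, was the widest on the chromosome, at 2532 bp, with 404 ChIP tags against 154 and a low ratio of 2.62 (2.17 to 3.18). Replicate 1 split this stretch into separate peaks, 1 at IV 14610821 to 14611138 with a ratio of 3.50 and 1 at IV 14611866 to 14612781 with a ratio of 2.52. The peak next in width, after the first-ranked one at 1906 bp, was IV 16169633 to 16171096, with 1464 bp and a ratio of 2.51 (1.97 to 3.21). A pair of strong peaks also lay close together on the left arm, at IV 3227526 to 3228150 with a ratio of 3.74 and at IV 3232652 to 3233966 with a ratio of 3.00, and a weaker peak between them had 85 ChIP tags and was not in replicate 1.

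Replicate 1 and the combined list gave like values at the 20 first-ranked IV peaks present in both replicate lists. These 20 had to rank high in the combined list and be called in replicate 1, and the lists are not shown to be independent. Their likeness was thus partly set by the choice and is given as a description only. Ratios ran from 2.62 to 6.22 in the combined list and from 2.42 to 5.64 in replicate 1, replicate 1 was the higher at 7 of the 20, and the intervals overlapped at all 20. Of the 20 peaks, 16 were also among the first 20 of IV in replicate 1. Where 2 replicate 1 peaks lay inside a combined peak, these values are those of the one with the longer overlap. This was so at IV 14610400 to 14612931, above, and at IV 8431675 to 8433131, which ranked 4 on IV in the combined list with 297 ChIP tags over 1457 bp and a ratio of 2.91 (2.32 to 3.68). Inside IV 8431675 to 8433131 replicate 1 called IV 8432193 to 8432530, with 63 tags and a ratio of 2.42 (1.51 to 3.99), and IV 8432733 to 8433063, with 68 tags and a ratio of 3.09 (1.89 to 5.25). The combined ratio lay between these, so no direction can be given for it. The 20 were spread along the chromosome, and when IV was cut into 10 equal stretches from the left end, stretch 9 held 4 of them, stretches 2, 5 and 8 held 3 each, and stretch 7 held 0.

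**Figure D1:**
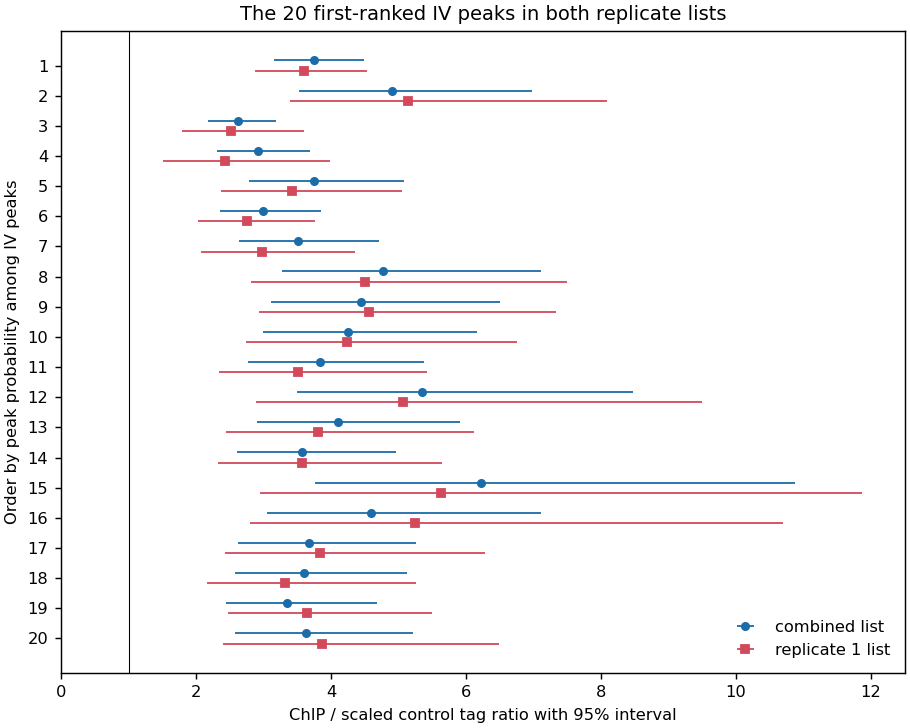
Ratio of ChIP to scaled control tags (x axis) at the 20 first-ranked IV peaks found in both replicate lists (y axis, in order of peak probability), with circles for the combined list, squares for replicate 1 and bars for 95% exact binomial intervals. Ratios lie between 2.42 and 6.22, and the circle and square intervals overlap at each of the 20 peaks.

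Among IV peaks with at least 100 ChIP tags, the highest ratio was at IV 654766 to 655088, with 112 tags against 18, a ratio of 6.22 (3.76 to 10.9). It stood alone, since the nearest peak to its left ended at 419765, which left the longest empty stretch of IV, 235000 bp. The next were IV 8252881 to 8253182 with 6.06 (3.61 to 10.8), IV 8926979 to 8927415 with 5.35 (3.50 to 8.47), and IV 13919179 to 13919599, given above. Last of the 5 was IV 2408482 to 2408864 with 4.78 (3.03 to 7.86). All 5 were in both replicate lists, and replicate 1 gave ratios of 5.64, 5, 5.07, 5.15 and 4 in the same order. Their intervals overlap, so the order among them is not firm.

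Ratios were highest in the peaks with the fewest tags. A low tag number can reach a given probability only at a high ratio, so this follows in part from how peaks are called. The 98 IV peaks with under 40 ChIP tags had a median ratio of 4.33 and none below 2.92, while the 396 with 40 to 99 tags had a median of 2.83. The 111 with 100 to 199 tags had a median of 2.87 and reached down to 1.68. The 11 peaks with 200 tags or more had ratios from 2.51 to 4.91 and a median of 2.91, and all 11 were in both replicate lists, so the medians differed little from 40 tags on. Across the 616 peaks width followed ChIP tags closely (Spearman's rho 0.95), and the ratio was lower where ChIP tags were more (rho -0.43). These correlations are across peaks of one list that share their libraries and the calling limit, and are given as a description. The highest ratio of all on IV, 21.0 at IV 16863645 to 16863696, was chosen after its value was seen and came from 21 tags against 1, with an interval of 3.38 to 868. Better supported was IV 4390525 to 4390727, with 54 tags against 4, a ratio of 13.5 (4.98 to 51.3), and 31 against 3 in replicate 1.

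**Figure D2:**
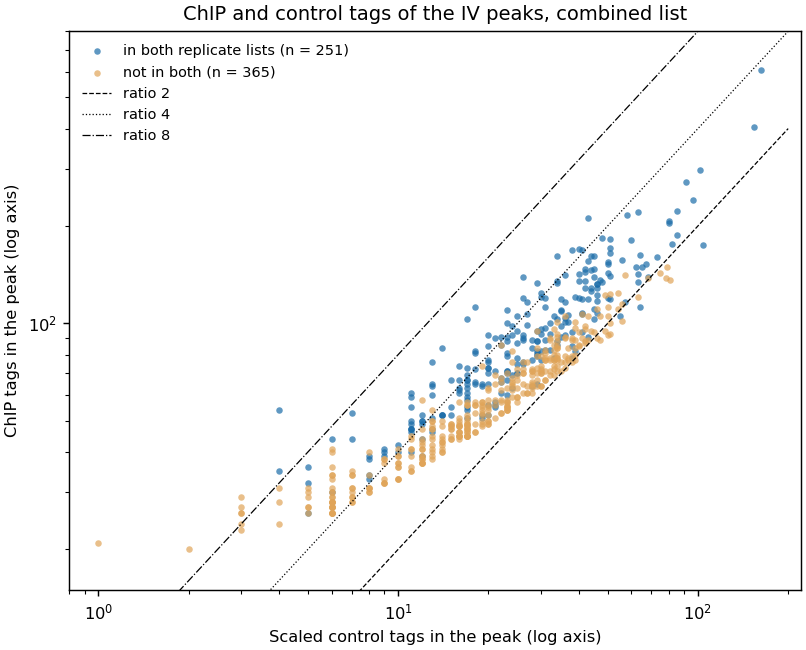
ChIP tags (y axis) against scaled control tags (x axis) for the 616 IV peaks of the combined list, both on log axes, with 1 point per peak and lines at ratios of 2, 4 and 8. The 251 peaks found in both replicate lists reach the highest tag numbers, and the 365 others have fewer ChIP tags, with medians of 88 in peaks of both lists and 54 in the others.

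Whether the ChIP replicates marked the same places on IV was asked next. The replicate 1 list had 264 IV peaks and the replicate 2 list 616. A replicate 2 peak lay over 255 of the 264 in replicate 1 (96.6%, 93.6 to 98.4), beside 97.8% over all chromosomes. From the other side 252 of the 616 in replicate 2 (40.9%, 37.0 to 44.9) had a partner in replicate 1, beside 40.9% over all chromosomes. Presence in replicate 1 went with rank: when the replicate 2 peaks on IV were cut by rank into 5 equal classes, 118 of the 124 first-ranked (95.2%) had a partner, and the shares in the next 4 classes were 66.7%, 24.4%, 12.2% and 5.69%. Median ChIP tags over these classes were 120, 76, 60, 49 and 46. The classes were made on IV alone, so the fall with rank is not shown to be particular to IV. The first IV peak of the combined list without a replicate 1 partner, at IV 11474042 to 11474382, ranked 84 on the chromosome.

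No overlapping pair was called different in its tag ratio. Over the 1630 pairs of all chromosomes, Fisher's exact test on ChIP and control tags with Benjamini-Hochberg adjustment called 0 (0%), and of the 255 IV pairs 0 were under 0.05 before adjustment as well. The smallest unadjusted p on IV was 0.202 (Fisher's exact test, two-sided), at IV 9357968 to 9358184, where replicate 1 had 48 tags against 14, a ratio of 3.43, and replicate 2 had 134 against 63 over a wider peak, a ratio of 2.13. The next in order were the replicate 1 peaks at IV 8379383 to 8379471, with a ratio of 4.29 against 2.29 in replicate 2, IV 9048084 to 9048466 with 2.09 against 1.68, IV 4019260 to 4019541 with 3.07 against 2.10, and IV 14610821 to 14611138 with 3.50 against 2.62. In all 5 the replicate 1 ratio was the higher. The median log2 ratio of replicate 1 over replicate 2 was 0.04 on IV, with quartiles of -0.06 and 0.17. The test takes the tags of the lists as separate counts, which is not shown for these lists, so it is no check that independent replicates gave equal ratios. Whether tags shared between the lists have a part in the high p-values was not tested.

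More of the combined IV peaks were in replicate 2 only than in both replicate lists. No combined IV peak was in replicate 1 without also being in replicate 2, 356 were in replicate 2 only, and 9 were in neither. The 9 ranked from 3054 to 3859 and had 29 to 92 ChIP tags. The best of them were IV 10142055 to 10142305 with a ratio of 2.46, IV 13030887 to 13031143 with 2.36, IV 10503704 to 10503737 with 3.88, IV 5968944 to 5969013 with 4.14 and IV 13881096 to 13881147 with 3.75. In turn 9 replicate 1 peaks on IV had no partner in replicate 2, and none of these was in the combined list. The best-ranked, at IV 11907494 to 11907693, ranked 145 of 264, with 41 tags against 11. The following were IV 9046972 to 9047346 with 89 against 43, IV 3228815 to 3228909 with 27 against 5, the 2 bp peak at IV 14303584 to 14303585 with 20 against 2, and IV 9399082 to 9399480 with 57 against 23. All 9 thus sat in the weaker part of the replicate 1 list.

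Along the chromosome peaks were most frequent near its middle and fewest at its right end. The 10 equal stretches of IV, from left to right, held 54, 53, 73, 65, 84, 76, 74, 52, 55 and 30 combined peaks. Replicate 1 alone gave 19, 27, 28, 31, 28, 37, 30, 23, 29 and 12. The highest count was in stretch 5 in the combined list and in stretch 6 in replicate 1, and the lowest was in the right-end stretch in both. That stretch, from position 15681671 on, held 4.87% of the IV peaks, and the right-end stretches of II, III, V and X held 10.5%, 9.79%, 7.34% and 7.78% of theirs. A share this low was not particular to IV. Stretch 2 of II held 4.62%, stretch 9 of V held 5% and stretch 2 of III held 5.19%, while the lowest on X was 7.78%. Beside the longest empty stretch, left of IV 654766 to 655088, long stretches without a combined peak lay between 13396573 and 13602348, between 16947021 and 17151157 and between 2412864 and 2599646.

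The right-end stretch stood apart in its tags. Its 30 peaks had a median of 48.7 control tags per kb, while the other stretches of IV had medians from 78.8 to 109. At the end stretches of II, III, V and X the medians were 79.6 or more. ChIP tags per kb were lower there too, with a median of 176 against 265 between the end stretches of IV. The ratio was higher, with a median of 4.33 against 2.96. Peaks there also held fewer ChIP tags, with a median of 46 against 68.5. A high ratio went with few tags, as above, and the part of this was not tested. Replicate 1 also had fewer control tags there, 38.6 per kb against 57.9 between the ends, but a nearly equal ratio, 3.41 from 12 peaks and 3.39 from 233. Peaks of this stretch in both replicate lists included IV 16180739 to 16181397, with 182 tags against 51 and a ratio of 3.57 (2.60 to 4.97), IV 17278408 to 17278672 with 53 against 7 and 7.57 (3.43 to 19.7), and IV 17210946 to 17211147 with 35 against 4 and 8.75 (3.13 to 33.9). The right-end stretch was singled out after its values were seen and was not tested.

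**Figure D3:**
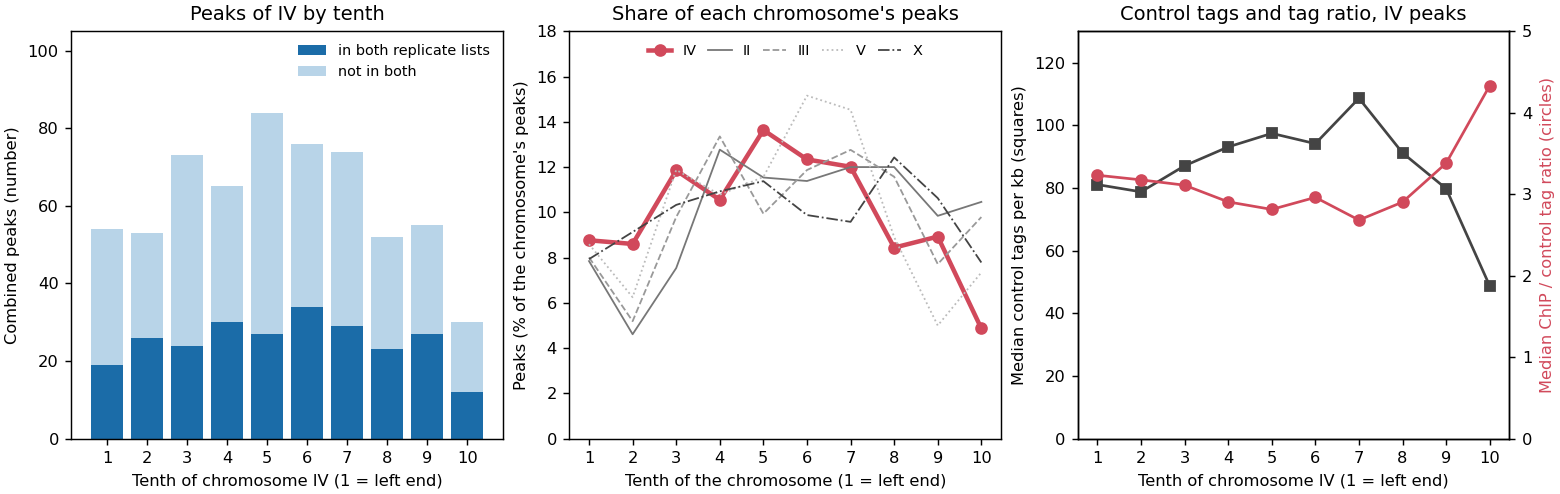
Left, combined peaks of IV in 10 equal stretches (number), dark for those in both replicate lists. Middle, each stretch's share of the peaks (%) for IV, II, III, V and X. Right, medians over IV peaks of control tags per kb (squares, left axis) and of the tag ratio (circles, right axis). Among the stretches of IV the right-end one has the fewest peaks, 30, the lowest control level, 48.7 tags per kb, and the highest median ratio, 4.33.

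A set of 5 shares was compared with those of the 2632 combined peaks on II, III, V and X, by Fisher's exact test (two-sided) with adjustment over the 5. None passed the threshold. Of the IV peaks 251 (40.7%, 36.8 to 44.7) were in both replicate lists, against 42.1% of the others and beside 40.9% over all chromosomes, a difference of -1.35 percentage points (95% Newcombe interval -5.61 to 3.00, Fisher's exact test, adjusted p = 0.680). The central one of 3 equal parts of IV held 245 peaks (39.8%), against 38.8% of the others and beside 39.8% over all (difference 0.98 points, -3.25 to 5.31, exact adjusted p = 0.680). The first 25% of the list by probability held 143 IV peaks (23.2%), against 25.2% of the others and beside 25% over all (-1.98 points, -5.56 to 1.88, exact adjusted p = 0.640). Peaks that lie close together cannot count as separate observations, which makes such p-values smaller than they should be, and the intervals leave room for differences of a few points.

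Close neighbours were about as frequent on IV as elsewhere. Of 615 gaps between neighbouring midpoints 72 (11.7%) were 2 kb or less, against 13.1% on II, III, V and X and beside 12.9% over all (-1.38 points, -4.05 to 1.66, Fisher's exact test, adjusted p = 0.640). The single chromosomes ran from 9.86% on V to 16.2% on II. When peaks within 2 kb of each other were joined, 57 pairs, 6 groups of 3 and 1 group of 4 formed, and 480 peaks stood alone. The group of 4 lay at IV 13393158 to 13396573, where 1 of the 4 was in both replicate lists, just left of the second-longest empty stretch. Peaks with a neighbour within 2 kb were in both lists in 66 of 136 cases (48.5%), and solitary ones in 185 of 480 (38.5%). Width moved with this: the median was 312 bp in peaks with a close neighbour and 250 bp in solitary ones, and its part in the result was not tested. Over all chromosomes 40.9% of combined peaks were in both lists. The split by spacing was made on IV alone, so it is not shown to be particular to IV.

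The densest 20 kb window of IV held 7 peaks, at IV 4015020 to 4033161, and 4 of the 7 were in both replicate lists. Toward its right end it held a strong pair, IV 4031092 to 4031653 with 133 tags against 29 (ratio 4.59) and IV 4032415 to 4032695 with 76 against 13 (5.85), and replicate 1 gave 5.25 and 5.88 for them. The last peak of the window, IV 4033159 to 4033161, spanned 3 bp with 26 tags against 6 and was not in replicate 1. Windows with 6 peaks lay at IV 4390525 to 4407263, IV 9510661 to 9528937 and IV 12031786 to 12051682. Each mixed strong and weak members. The first of these 3 began with the peak of ratio 13.5 and also held the lowest ratio on IV, 1.68 at IV 4405079 to 4406047 (136 tags against 81), in no replicate 1 peak. The last began with IV 12031786 to 12032842, a peak of 1057 bp with 223 tags against 85, and 3 of its 6 members were in both lists.

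**Figure D4:**
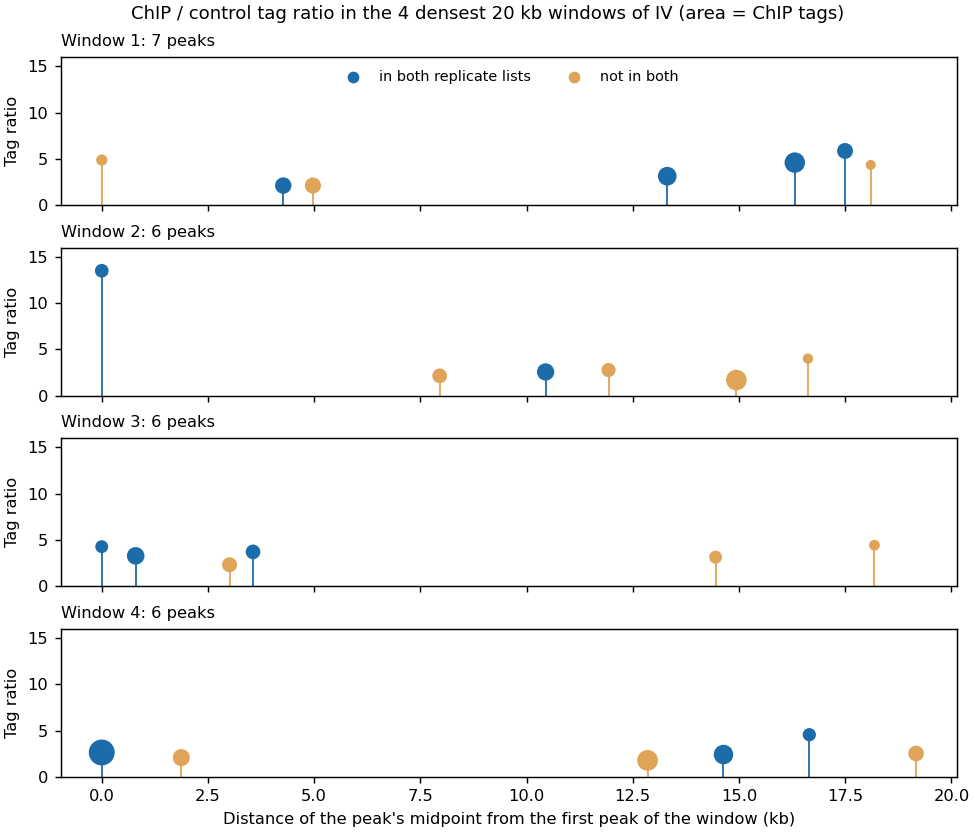
Tag ratio (y axis) of each peak in the 4 densest 20 kb windows of IV, by distance of its midpoint from the first peak of the window (x axis, kb), with point area in proportion to ChIP tags and blue for peaks in both replicate lists. Ratios of neighbours range from 1.68 to 13.5 within the second window, and 12 of the 25 peaks are in both lists.

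Very narrow peaks made up a larger share on IV, short of the threshold. Peaks under 50 bp numbered 41 of 616 (6.66%, 4.82 to 8.92), against 4.52% on II, III, V and X and beside 4.78% over all (2.13 points, 0.22 to 4.50, Fisher's exact test, p = 0.0379, adjusted p = 0.190). With the limit at 100 bp the combined shares were 10.6% against 8.51% (Fisher's exact test, adjusted p = 0.579). In the replicate 2 list alone the share under 50 bp was 7.14% against 4.25% (exact adjusted p = 0.0221). The combined list repeats most intervals of replicate 2, so this is not a separate result. In replicate 1 the share under 50 bp was 0.758% (2 peaks) against 2.53%, the opposite direction. These 41 peaks had a median of 28 ChIP tags against 6 control tags, 12 of them spanned 10 bp or less, and 2 were in both replicate lists, at IV 9046486 to 9046513 and IV 14680199 to 14680201.

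Ordered by tag ratio in place of probability, IV had a higher share than the other 4 chromosomes together. The 25% of the combined list with the highest ratios held 200 of 616 IV peaks (32.5%, 28.8 to 36.3), against 25.5% on II, III, V and X and beside 25% over all (6.94 points, 2.97 to 11.1, Fisher's exact test, adjusted p = 0.00294). Chromosome by chromosome the difference was 11.96 points against X (exact adjusted p = 6.57e-06), 7.47 against V (0.0203), 6.16 against II (0.0942) and 2.20 against III (0.668), so IV and III were not told apart. Leaving X out gave 5.23 points (exact adjusted p = 0.0701) and keeping peaks in both replicate lists gave 6.46 (0.102), both short of the threshold. These further comparisons were chosen after seeing the data, and each p was adjusted with the other 4 shares, not over chromosomes. All p-values by tag ratio count peaks of one list as separate observations, so they do not measure the spread between chromosomes. The shares of the other 4 chromosomes ran from 20.5% on X to 30.3% on III. Without the right-end stretch of IV the difference was 5.81 points (0.0228). In replicate 1 the shares were 29.9% on IV and 27.5% on the others (exact adjusted p = 0.680), and III was the highest with 35.5%. Median control tags per kb were 89.5 on IV, 93.6 on II, 93.9 on III, 92.3 on V and 103 on X. Of these chromosomes they were lowest on IV and highest on X. The ratio shares of II, III and V were 26.3%, 30.3% and 25%. Median ChIP tags per kb were 262 on IV, 265 on II, 275 on III, 264 on V and 275 on X. Median ChIP tags per peak were 65 on IV, 70 on II, 65 on III, 66 on V and 76 on X. A high ratio went with few tags, as above, and the part of these levels in the result was not tested.

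**Figure D5:**
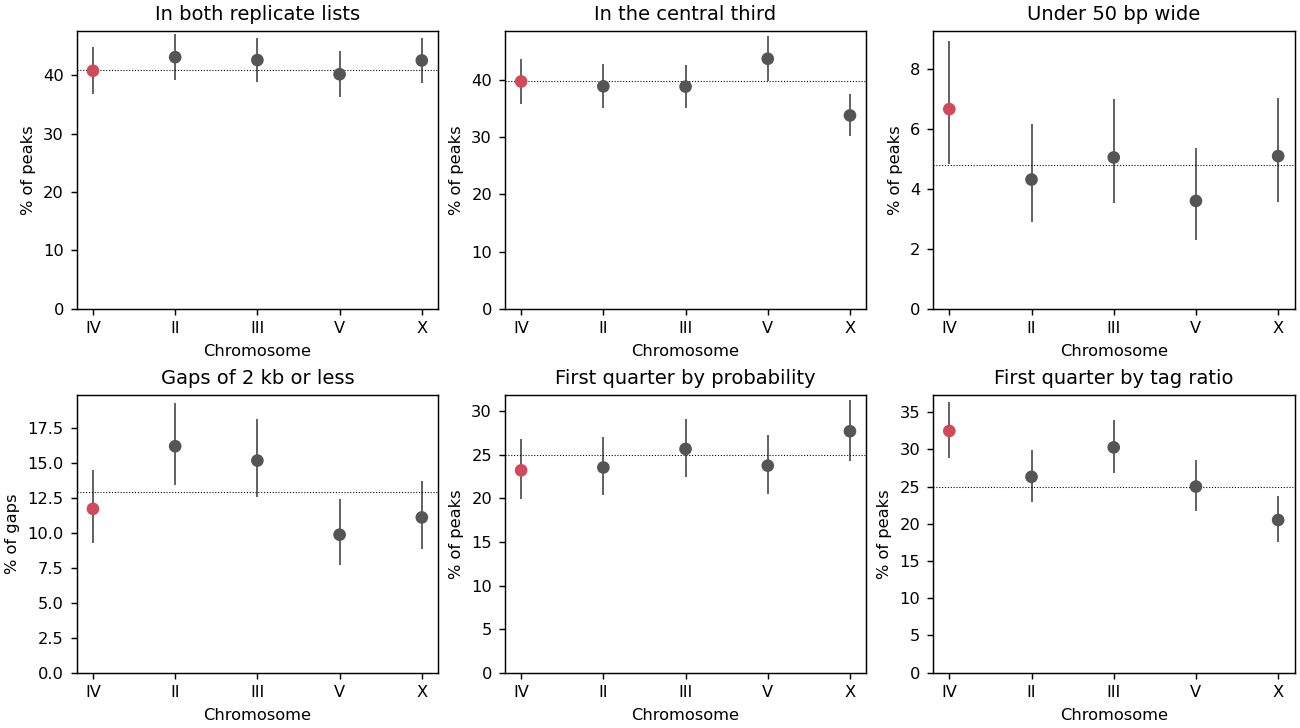
Shares (%) of combined peaks, or of gaps, on IV (first, red) and on II, III, V and X, for 6 measures, with 95% exact binomial intervals and a dotted line at the share over all 6 chromosomes. The IV interval includes the dotted line in 4 panels, lies just above it for peaks under 50 bp (4.82% against 4.78%) and clearly above it for the 25% of highest tag ratio (28.8% against 25%).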

How the data were processed

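Per the file headers, the 3 deposited peak lists (1 for each ChIP sample and 1 combined) are on WormBase WS180 and come from PeakSeq. No header or label used here gives its settings, the aligner or how the combined list was made. The authors deposited 1 value per peak, named qValue, a number that reads as a p-value between 0 and 1. Every value matched 1 upper tail of a binomial distribution with probability 0.5 (relative tolerance 1e-11, totals up to 3000 tags, and up to 20000 for 1 peak of another chromosome), so ChIP and scaled control tags were derived from it. The extent of a chromosome is the highest peak end in any list. Overlap means at least 1 bp. The lookup, overlap and per-pair test were tested on simulated data. Named positions are the 20 first-ranked IV peaks in both replicates, the 5 highest ratios from 100 ChIP tags, the 3 widest, the 4 densest 20 kb windows, the 5 best in neither replicate, the 5 best unpartnered replicate 1 peaks and the 5 pairs of smallest p. Others were chosen after their values were seen. Members, measures and tests were chosen with earlier results of these data known. Alternatives changed overlap, width, gap, rank, list and the chromosomes compared. RefSeq (WBcel235) served only for gene counts per chromosome. Tests ran in scipy 1.17.1 and statsmodels 0.14.6 under Python 3.11.15, with pandas 2.3.3, numpy 2.4.6 and matplotlib 3.10.9.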

Additional observations from a re-analysis of the deposited data

How the results depend on the processing

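Values are differences in percentage points, IV minus the others. Of 45 alternatives 26 kept direction and side of the threshold, 18 reversed direction and 1 kept direction but passed the threshold. All rankings by tag ratio count among the 18, since they are set against the rank by probability. The 26 include an alternative of the test of replicate pairs, which has no difference in points. The alternatives under the tag ratio that change the chromosomes, stretches, widths or lists were chosen after seeing the data. For the central part of IV the difference was -0.0164 with I included and -0.71 without X. Ranked by tag ratio the first 25% of peaks gave 6.94, then 5.23 against II, III and V, 6.16 against II, 2.20 against III, 7.47 against V, 11.96 against X, 5.81 without the right-end stretch of IV, 6.10 without that stretch of every chromosome, 5.41 for peaks of 50 bp or more and 6.46 for peaks in both lists, all above 0 where the rank by probability gave -1.98. Without replicate 1 or 2 the ranges were -1.22 to 0.74 for the central part, -1.39 to 0.021 for presence in the remaining list, -1.78 to 2.90 for peaks under 50 bp, -1.64 to 1.12 for close gaps, -4.84 to -2.19 for the first 25% by probability and 2.41 to 6.77 by ratio. The cause was not tested. Depth limits the narrow and low-tag peaks most: the interval of the ratio had a median half-width of 114% of the ratio under 40 ChIP tags, and of 26.2% from 200 tags on. No paired analysis was possible because each input library enters the lists only as a control, with no peaks of its own.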
